A study of Mus musculus with 24 samples.

Results

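Transcriptional responses to the AMPK activator MK-8722 were examined in *tfeb tfe3* double-knockout (DKO) mouse embryonic fibroblasts (MEFs), by comparing 4 libraries of DKO MEFs treated with MK-8722 to 4 libraries of DKO MEFs treated with vehicle (DMSO). These 8 libraries were chosen by their genotype and treatment labels from the 24 of the series, which also holds WT MEFs and cells treated with torin1, an inhibitor of MTOR. DMSO was used at 0.1%, MK-8722 at 10 μM and torin1 at 100 nM, and the time of exposure was not given in the sources used here. Both groups compared lack TFEB and TFE3 by label, all libraries carry the label of batch 1, and the groups differ by label in the drug. Each group of DKO MEFs held 1 culture each of passages 8, 9, 10 and 11, and the WT groups, 4 libraries of each treatment, held passages 7, 8, 9 and 11. WT and DKO MEFs came from another laboratory, and no number of embryos or clones was given in the sources used here, so the 4 passages are taken as cultures of 1 line per genotype. The p-values rest on the spread between cultures within groups, estimated over all 24 libraries, and the main test does not pair libraries by passage.

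AMPK is a kinase that senses falling cellular energy. It restrains MTORC1 and biosynthesis, promotes catabolism and, in MEFs, leads to dephosphorylation of TFEB and TFE3, which then enter the nucleus. TFEB and TFE3 belong to the MiT/TFE family of basic helix-loop-helix factors and bind E-box motifs in promoters of genes for lysosomal hydrolases, the V-ATPase, autophagy and the folliculin and Rag GTPase machinery. AMPK also acts on factors outside this family, among them SREBPs, MLX-family carbohydrate sensors, class IIa histone deacetylases and p53.

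Total counts of the 8 libraries ranged from 24668921 to 30179425. *Tfeb* RNA was 2.22, 2.65, 2.19 and 1.95 CPM (counts scaled to the normalised library total) in DKO MEFs with DMSO and 1.97, 1.85, 2.205 and 2.09 CPM with MK-8722 at passages 8, 9, 10 and 11, against 22.9 ± 1.74 CPM (SD, n = 4) in WT MEFs with DMSO. *Tfe3* RNA remained at 124 ± 2.11 CPM in DKO and 120.2 ± 1.17 CPM in WT MEFs with DMSO (SD, n = 4 each), so gene-level RNA checks the label for *Tfeb* and checks nothing for *Tfe3*. The third family member, *Mitf*, was present at 30.5 ± 4.11 CPM under DMSO and fell with MK-8722 to 22.8 ± 5.47 CPM (SD, n = 4 each), a log2 fold change of -0.42 (edgeR adjusted p = 0.0215). *Mitf* did not pass the test without both passage 8 libraries (log2 fold change -0.38, edgeR adjusted p = 0.0676). *Tfec* was listed at 0 in all 8 libraries. Of 11 fibroblast markers, *Col1a1*, *Col1a2*, *Fn1* and *Vim* were abundant, whereas *Thy1*, *Lum* and *Dcn* were below 1 TPM, a level adjusted for transcript length and library total, in every library. The summed level of the fibroblast list was 3613 to 4265 TPM with DMSO and 3775 to 4348 TPM with MK-8722. Lists for macrophages, epithelial, endothelial, adipocyte, muscle and neural cells summed to at most 30.2 TPM each. Among them only *Krt8*, *Acta1* and *Map2* rose, by 1.01, 0.77 and 0.35 on the log2 scale, which took the epithelial sum from 2.34-3.92 to 4.89-9.54 TPM and the muscle sum from 4.38-7.19 to 9.09-13.4 TPM. *Acta1* did not pass without both passage 8 libraries (log2 fold change 0.84, edgeR adjusted p = 0.0572). In bulk RNA, fewer cells of a kind and less RNA per cell cannot be told apart.

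In a principal component analysis of the 8 libraries, the first component (25.97% of the variance) parted MK-8722 from DMSO, and the second (17.9%) set both passage 8 libraries, with scores of 18.2 for DMSO and 28.4 for MK-8722, apart from the other 6, which lay between -20.2 and 2.22. The 2 passage 8 libraries had the lowest scores for sterol genes and the highest for ATF4 targets within their treatment, as described with those lists. The RNA integrity number was 7.9 in the passage 10 library with MK-8722 and 9.7 to 9.9 in the other 7 libraries.

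MK-8722 upregulated 843 of 15401 genes tested (5.47%) and downregulated 495 (3.21%) in *tfeb tfe3* DKO MEFs (fold change of at least 1.2, edgeR adjusted p under 0.05). The median fold changes of the genes called were 0.41 and -0.35 on the log2 scale. The 4 MK-8722 libraries did not overlap the 4 DMSO libraries for 699 of the 843 upregulated and 348 of the 495 downregulated genes, and among all genes tested the groups did not overlap for 11.4% in the upward and 9.64% in the downward direction. Just inside the fold threshold lay *Golga3* and *Tmed3* (both 0.26) on the upward and *Hars* and *Gramd4* (both -0.26) on the downward side, and just outside it *Coq3*, *Parp4*, *Mettl16* and *Rrp8*, at log2 fold changes of 0.26 or -0.26 as well.

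The 12 largest increases were ranked among called genes with a mean log2 CPM of at least 2 and no overlap between the groups. They included several genes for secreted and cell surface proteins. *Nppb* (ENSMUSG00000029019, chr4:147985788-147987205, plus strand on GRCm38), which encodes brain natriuretic peptide, was at 1.92, 2.49, 2.53 and 1.71 CPM under DMSO and 6.63, 9.06, 11.7 and 8.38 CPM with MK-8722, in the order of passages 8, 9, 10 and 11 used throughout. Every MK-8722 library lay above every DMSO library, as the rule required, and the log2 fold change was 2.05 ± 0.21 (SE, edgeR adjusted p = 1.22e-06). *Tnfrsf11b*, the RANKL decoy osteoprotegerin, went from 5.76 ± 0.979 to 20.3 ± 2.28 CPM (SD, n = 4 each), *F3*, tissue factor, from 55.6 ± 9.01 to 124 ± 13.8 CPM, and *Lrrc32*, the cell surface docking protein of latent TGFB known as GARP, from 23.4 ± 3.26 to 52.7 ± 6.74 CPM. *Plaur*, the urokinase receptor, rose by 0.84 (edgeR adjusted p = 1.67e-05). Also among the 12 largest rises were *Ifi207* (1.78), *Rgs16*, a regulator of G protein signalling (1.502), *Insig1* (1.48), *Zc3h6* (1.38), *Gask1b* (1.17), *Tcim* (1.09) and *Ifit2* (1.05).

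Ranked by the same rule, the 12 largest decreases included those of *Klf2*, *Pde4b* and *Rhob*. Called falls of genes that did not meet the rule are not ranked here. *Klf2* (ENSMUSG00000055148, chr8:72319033-72321656, plus strand), a Krüppel-like transcription factor regulated by MEF2 and class IIa histone deacetylases, fell from 10.8, 10.9, 11.1 and 12.1 CPM with DMSO to 3.39, 3.19, 2.87 and 3.05 CPM with MK-8722. The cultures were nearly uniform in both groups, and the log2 fold change was -1.84 ± 0.14 (SE, edgeR adjusted p = 2.09e-08). *Rhob* (ENSMUSG00000054364, chr12:8497661-8500009, minus strand), a short-lived small GTPase of endosomes, fell from 65.0, 65.5, 65.5 and 66.9 CPM to 28.8, 27.8, 27.4 and 33.7 CPM, a log2 fold change of -1.16 ± 0.089 (SE, edgeR adjusted p = 2.52e-08). *Pde4b*, a cAMP phosphodiesterase, was at 7.55 ± 1.28 CPM under DMSO and 2.14 ± 0.384 CPM with MK-8722 (SD, n = 4 each), a log2 fold change of -1.83 (edgeR adjusted p = 2.77e-08). The remaining falls among the 12 largest were of *Fam13b* (-0.97), the ligands *Bmp2* (-0.96) and *Kitl*, stem cell factor (-0.76), *Txnip* (-0.83), the aryl hydrocarbon receptor *Ahr* (-0.75), *Gm3320* (-0.75), the NOTCH target *Hey1* (-0.72), the ARF GTPase *Arf2* (-0.68) and *Ezr*, ezrin, a linker of membrane and actin (-0.65).

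**Figure D1:**
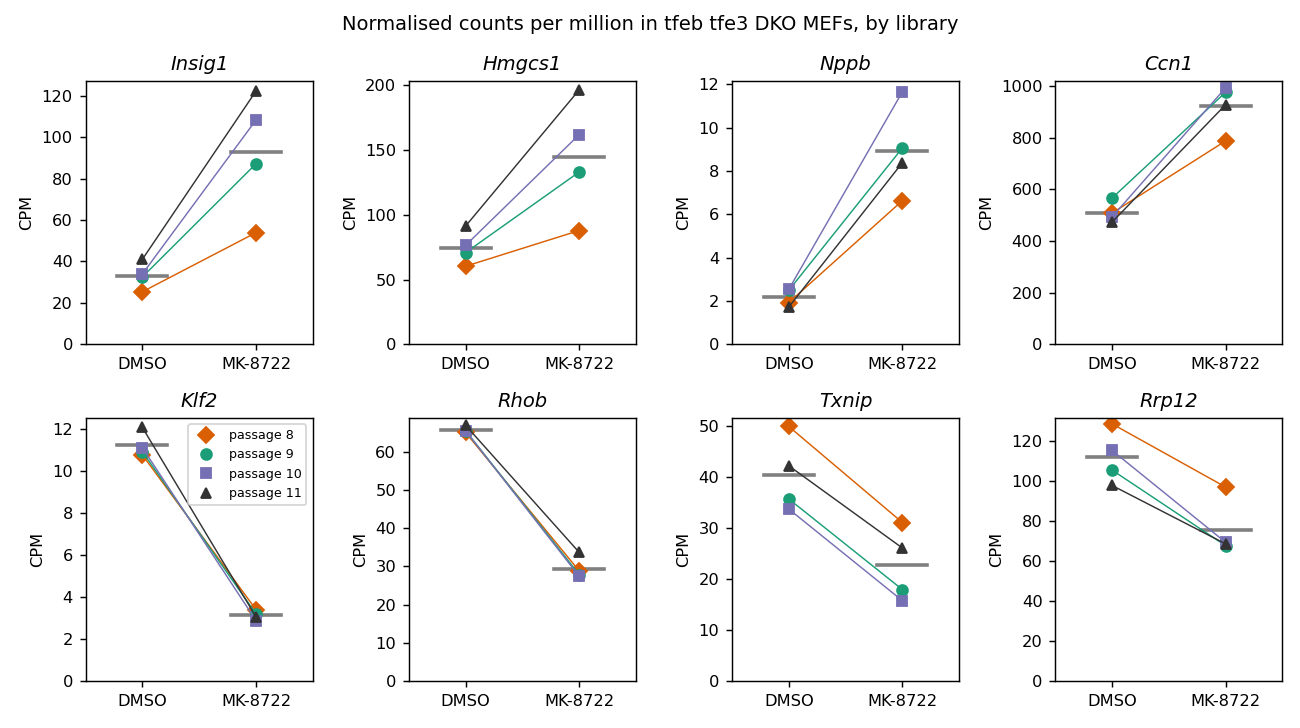
Normalised CPM of 8 genes in the 8 libraries of *tfeb tfe3* DKO MEFs (y axis from 0, 1 panel per gene), with DMSO and MK-8722 libraries of the same passage joined by a line and group means as grey bars. *Klf2* and *Rhob* fell to similar levels in all 4 cultures, whereas *Insig1* and *Hmgcs1* were lowest at passage 8 under both treatments (54.0 against 87.3 to 122 CPM for *Insig1* with MK-8722).

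Genes of sterol synthesis and uptake were upregulated in part. Of 24 list members tested, 13 rose, 0 fell and 11 passed neither threshold, against 5.47% of all genes raised, and the median of the list was 0.47 against 0 over all genes tested. The count raised was 9 without the DMSO library of passage 8 or the MK-8722 library of passage 11. It was 18 without the MK-8722 library of passage 8, and 4 in a test against a fold change of 1.2. Cells sense sterol at the ER, where INSIG proteins hold the SREBP-SCAP complex, and the freed SREBP2 induces genes of sterol synthesis and uptake. *Insig1* (ENSMUSG00000045294, chr5:28071363-28078662, plus strand), itself an SREBP target, was at 25.4, 32.5, 33.9 and 41.0 CPM under DMSO and 54.0, 87.3, 108 and 122 CPM with MK-8722. The groups did not overlap and the log2 fold change of 1.48 ± 0.24 (SE, edgeR adjusted p = 0.000148) equals 2.80-fold. *Hmgcs1*, HMG-CoA synthase, rose from 60.3, 70.8, 76.4 and 91.3 to 87.9, 133, 162 and 197 CPM, by 0.96 ± 0.21 (SE, edgeR adjusted p = 0.00243). For this gene the passage 8 library with MK-8722 lay below the passage 11 library with DMSO, although it lay above the DMSO library of its own passage. The downstream enzymes *Cyp51*, *Msmo1*, *Idi1* and *Fdft1* rose by 0.84, 0.83, 0.74 and 0.71 on the log2 scale. *Mvd*, *Sqle*, *Fdps* and *Lss* rose by 0.59, 0.54, 0.49 and 0.47. *Srebf2*, which encodes SREBP2, rose by 0.40 (edgeR adjusted p = 0.00439). *Dhcr7* (-0.032) and *Ebp* (-0.03), which act late in the pathway, did not pass the test.

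The mean log2 level of the list, set to 0 at the mean of the DMSO libraries, was -0.20, -0.044, 0.034 and 0.21 with DMSO and 0.092, 0.45, 0.65 and 0.81 with MK-8722. Passage 8 was the lowest culture in both groups and had the smallest difference within a passage, 0.30 against 0.49, 0.62 and 0.60. Of the 24 members 20 were higher with MK-8722 in all 4 passages, a description that has no share over all genes beside it. In WT MEFs 14 members rose with a median of 0.51, and 0 members had a response called different between the genotypes, and 1 had a smaller response in DKO with passage as a block (5.88% of all genes). The response in DKO minus that in WT was -0.14 (95% interval -0.83 to 0.55) for *Insig1* and 0.17 (95% interval -0.45 to 0.78) for *Hmgcs1* on the log2 scale.

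The promoters below are those of the 4 raised sterol genes with the largest change that had a promoter in the RefSeq table and a CCAAT box, the NF-Y site that accompanies sterol response elements, in the 150 bases before the transcription start (GRCm38.p6; 5′ to 3′ on the strand of the gene; capitals mark CCAAT or its complement). CCAAT was added to the motifs after values were seen. It was found on either strand in 16 of the 17 sterol promoters at hand, from 250 bases before to 50 after the start, and in 41.1% of all 27025 genes of the table (43.6% of the genes tested), but with promoters for only 70.8% of the list, under the 80% set as a minimum, the comparison is void.
*Hmgcs1* (chr13:119690201-119690350, plus strand): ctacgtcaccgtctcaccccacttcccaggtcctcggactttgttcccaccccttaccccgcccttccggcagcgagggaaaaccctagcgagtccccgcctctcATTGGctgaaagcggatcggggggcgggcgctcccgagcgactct
*Cyp51* (chr5:4104698-4104847, minus strand): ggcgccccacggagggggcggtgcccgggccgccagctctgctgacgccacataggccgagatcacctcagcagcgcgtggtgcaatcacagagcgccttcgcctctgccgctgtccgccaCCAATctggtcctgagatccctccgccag
*Msmo1* (chr8:64733579-64733728, minus strand): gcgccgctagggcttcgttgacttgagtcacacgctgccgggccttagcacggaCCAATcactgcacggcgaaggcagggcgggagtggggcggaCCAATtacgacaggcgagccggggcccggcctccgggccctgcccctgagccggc
*Idi1* (chr13:8885456-8885605, plus strand): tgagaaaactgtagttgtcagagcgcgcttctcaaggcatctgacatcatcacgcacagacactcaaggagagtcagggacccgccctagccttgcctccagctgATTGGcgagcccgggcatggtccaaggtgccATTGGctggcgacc

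MK-8722 upregulated 1583 genes (10.3%) and downregulated 904 (5.87%) in WT MEFs, so that the comparison in DKO held fewer called genes in both directions. Of the genes raised in DKO, 488 were also raised in WT, which is 57.9% of the DKO and 30.8% of the WT genes. Of the genes lowered in DKO, 205 were also lowered in WT, 41.4% of the DKO and 22.7% of the WT genes. The DKO and WT comparisons share no library. The test of the difference itself called 628 genes (4.08%) with a smaller and 218 (1.42%) with a larger response in DKO, with the log2 fold change in DKO lying below or above that in WT. Among the 488 genes raised in both genotypes, 417 had responses not called different, 70 had a smaller and 1 a larger response in DKO. For 306 of these 417 the 95% interval of the difference lay within 0.5 of 0 on the log2 scale.

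The genes below were called alike in both genotypes, with responses not called different, and had the smallest adjusted p in DKO. That choice favours small errors, and a difference under 1.2-fold is never called. *Rusc2* rose by 0.68 ± 0.048 (SE) in DKO and 0.90 in WT, *Slc4a7*, a sodium bicarbonate cotransporter, by 0.85 ± 0.072 and 0.76, and *Calcoco1*, a receptor for ER-phagy, by 0.53 ± 0.048 and 0.54. *Kctd13* (0.71 in DKO, 0.87 in WT) and *Sertad2* (0.40, 0.28) were also among the 6 raised genes with the smallest adjusted p. *Klf2* fell by 1.84 in DKO and 1.96 in WT on the log2 scale, with a difference of 0.12 (95% interval -0.30 to 0.53). *Rhob* decreased by 1.16 and 1.15, with a difference of -0.0075 (95% interval -0.27 to 0.25). *Arf2* (-0.68 in DKO, -0.69 in WT), *Fam13b* (-0.97, -0.95), *Bop1* (-0.44, -0.49) and *Ttpal* (-0.43, -0.39) were the other lowered genes of this kind.

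**Figure D2:**
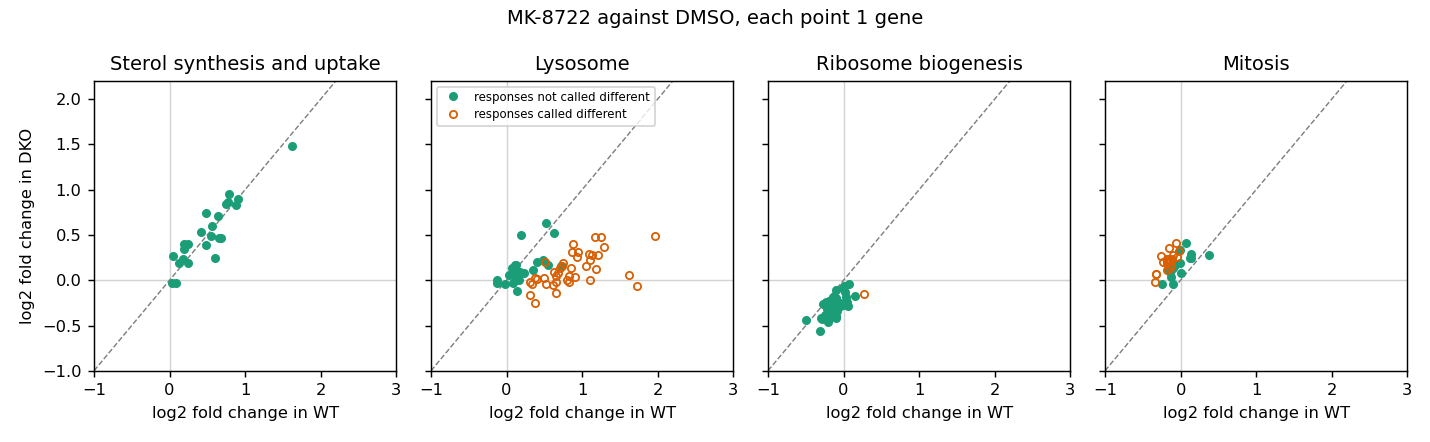
Log2 fold change with MK-8722 in WT (x axis) and in *tfeb tfe3* DKO MEFs (y axis) for members of 4 lists, 1 point per gene; the dashed line marks equal responses, and open circles mark genes whose responses were called different. Sterol genes lie along the line, 41 of 64 lysosomal genes lie below it as open circles, and 20 of 38 mitosis genes lie above it as open circles.

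Lysosomal genes, the best known targets of TFEB and TFE3, had smaller responses in DKO than in WT MEFs for most members of the list. In DKO MEFs 12 of 64 members rose and 0 fell, with a median of 0.093, whereas in WT 47 rose with a median of 0.63, against 5.47% of all genes raised in DKO and 10.3% in WT. In a test against a fold change of 1.2, 2 members rose in DKO, against 141 of all 15401 genes tested. The response was called smaller in DKO for 41 members and larger for 0, against 4.08% and 1.42% of all genes. The sialidase *Neu1* (ENSMUSG00000007038, chr17:34931253-34935953, plus strand) was at 24.2, 26.3, 25.0 and 25.4 CPM under DMSO and 33.0, 37.0, 36.0 and 35.1 CPM with MK-8722 in DKO, with no overlap and a log2 fold change of 0.48 ± 0.063 (SE, edgeR adjusted p = 1.75e-05), while it rose by 1.97 in WT, and the difference between the responses was -1.48 (95% interval -1.67 to -1.30, edgeR adjusted p = 1.09e-10). The hydrolases *Gla*, *Idua*, *Naglu*, *Aga*, *Galc* and *Hexa* rose by 0.48, 0.48, 0.31, 0.31, 0.29 and 0.28 in DKO, and the cation channel *Mcoln1* by 0.37, against 1.29 in WT. Among the raised members, the difference was not called for *Slc17a5* and *Tmem175*. The sialic acid exporter *Slc17a5* rose by 0.53 in DKO and 0.63 in WT, a difference of -0.10 (95% interval -0.37 to 0.17), and *Tmem175*, a lysosomal potassium and proton channel, rose from 8.45, 7.58, 6.03 and 6.72 to 10.7, 12.4, 10.9 and 10.6 CPM, by 0.64 in DKO and 0.52 in WT, a difference of 0.11 (95% interval -0.15 to 0.38).

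The other machinery of the lysosome was counted in the same way. Of 20 V-ATPase genes 1 rose in DKO, *Tcirg1* by 0.39 (edgeR adjusted p = 0.0312), against 16 in WT, and 14 responses were smaller in DKO. The 5% raised in DKO was near the 5.47% of all genes, while 10.3% of all genes rose in WT and 4.08% had a smaller response in DKO. *Tcirg1* did not pass without both passage 8 libraries (log2 fold change 0.41, edgeR adjusted p = 0.0707). Of 12 genes for folliculin, its partners, Rag GTPases and Ragulator, 1 rose in DKO, *Fnip2* by 0.29 (edgeR adjusted p = 0.0154), against 9 in WT. *Flcn*, which feeds back on Rag GTPases, was at 44.5, 44.6, 41.8 and 37.8 CPM under DMSO and 44.1, 41.3, 39.4 and 37.5 CPM with MK-8722 in DKO, a log2 fold change of -0.055 against 1.36 in WT, and the difference was -1.41 (95% interval -1.60 to -1.23, edgeR adjusted p = 2.73e-10). *Fnip1* changed by 0.20 in DKO, under the fold threshold, and by 1.46 in WT. Among 49 autophagy genes 3 (6.12%) rose in DKO, a share near the 5.47% of all genes, and 12 rose in WT. The raised genes in DKO were *Calcoco1* (0.53), the cargo receptor *Nbr1* (0.28) and the kinase *Ulk2* (0.27). The count in DKO was 1 without the DMSO or the MK-8722 library of passage 9, 5 without the MK-8722 library of passage 8 and 6 without the DMSO library of passage 11. The receptor *Sqstm1* had a log2 fold change of 0.22 in DKO (edgeR adjusted p = 0.184) and 0.87 in WT, and the marker of lysosomal stress *Gpnmb* had 0.47 (edgeR adjusted p = 0.257) and 3.95.

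The promoters printed here belong to genes of these lists with the largest loss of response in DKO among those holding TCACGTGA, the longer palindrome of the CLEAR element bound by TFEB, before the start (RefSeq, GRCm38.p6; 5′ to 3′ on the strand of the gene; capitals mark TCACGTGA). The windows were kept short to show the motif with its surroundings.
*Dpp7* (chr2:25356373-25356432, minus strand): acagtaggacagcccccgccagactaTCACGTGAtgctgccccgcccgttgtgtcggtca
*Ctsa* (chr2:164833734-164833772, plus strand): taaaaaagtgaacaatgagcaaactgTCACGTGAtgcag
*Mcoln1* (chr8:3500447-3500506, plus strand): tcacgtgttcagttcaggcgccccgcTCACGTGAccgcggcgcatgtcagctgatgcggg
*Pip4p1* (chr14:50930871-50930930, minus strand): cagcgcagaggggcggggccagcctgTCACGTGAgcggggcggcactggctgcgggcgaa

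*Dpp7*, dipeptidyl peptidase 7, responded by -0.066 in DKO and 1.73 in WT, *Ctsa*, the protective protein of NEU1, by 0.0053 and 1.10, *Mcoln1* by 0.37 and 1.29, and *Pip4p1*, a lysosomal phosphoinositide phosphatase, by 0.16 and 1.05 on the log2 scale. Over protein-coding genes with a promoter in the table, CACGTG, the E-box core within TCACGTGA, was found on either strand between 250 bases before and 50 after the start in 11.2% of 642 genes raised in DKO, 18.8% of 372 genes lowered in DKO, 11.6% of the genes tested and 8.09% of all genes of the table. TCACGTGA was found in 2.18%, 1.88%, 2.18% and 1.12%, the cAMP response element TGACGTCA in 3.74%, 3.23%, 3.57% and 2.03%, and the C/EBP-ATF element TTGCATCA in 0.623%, 1.08%, 0.713% and 1.03%. These shares are in the order of genes raised, lowered, tested and in the table. Promoters were at hand for 78.6% of the genes tested, under the 80% set as a minimum, and the table covers genes that are not expressed in MEFs, so no difference between these shares is drawn. For genes raised in WT and for genes with a smaller response in DKO, promoters were at hand for 77.1% and 77.6%, under 80%, so no share is given.

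Genes of ribosome biogenesis were downregulated in part. Of 52 members 24 fell, none rose and 28 passed neither threshold, against 3.21% of all genes lowered, and the median was -0.26 against 0 over all genes. In a test against a fold change of 1.2, 2 members fell, against 33 of all 15401 genes tested. All 52 members had fold changes below 0, from -0.56 to -0.044. *Rrp12* (ENSMUSG00000035049, chr19:41862851-41896173, minus strand), which acts in export and maturation of both ribosomal subunits, was at 129, 105, 115 and 97.8 CPM under DMSO and 96.9, 67.6, 69.3 and 68.5 CPM with MK-8722. The groups did not overlap, although the passage 8 library with MK-8722 was close to the lowest DMSO library, and the log2 fold change was -0.56 ± 0.10 (SE, edgeR adjusted p = 0.000257). *Tsr1*, needed for the small subunit, fell by 0.46 (edgeR adjusted p = 0.000361), and *Bop1*, of the PeBoW complex of the large subunit, had -0.44 (edgeR adjusted p = 1.25e-06). RNA polymerase I subunits *Polr1e* (-0.43) and *Polr1b* (-0.28), the pseudouridine synthase *Dkc1* (-0.42), the methyltransferase *Nop2* (-0.39) and nucleolin, *Ncl* (-0.27), fell as well. CACGTG, which MYC also binds, was found in 10 of 47 biogenesis promoters at hand (21.3%). The shares were 11.6% of the genes tested and 8.09% of all genes in the table. Promoters were at hand for only 78.6% of the genes tested, under the minimum set for a comparison. The table also covers genes that are not expressed in MEFs. No difference between these shares is therefore drawn, and binding by MYC was not tested. Ribosomal proteins themselves, 79 genes whose abundance is set mainly by translation, held 0 called genes with a median of -0.063.

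The level of the biogenesis list was 0.14, 0.003, 0.021 and -0.16 with DMSO and -0.075, -0.32, -0.31 and -0.38 with MK-8722 on the log2 scale, with the passage 8 culture highest in both groups. In every passage 49 members were lower with MK-8722, a description that has no share over all genes beside it. The count depended on passage 8. Without both passage 8 libraries 37 members fell (3.84% of all genes), without the MK-8722 library of passage 8 alone 40, and without the DMSO library of passage 8 alone 15. Without the DMSO library of passage 11 the count was 38, and without the MK-8722 library of passage 11 it was 16. In WT 5 members fell and 1 rose, with a median of -0.12, against 5.87% and 10.3% of all genes. The difference between genotypes was called for 1 member, with the lower value in DKO, against 4.08% of all genes. It was called this way for 8 with passage as a block (5.88% of all genes) and for 6 without both passage 8 libraries (630 of 15601 genes).

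Genes of mitosis rose in part in DKO MEFs. In DKO 8 of 38 rose and none fell, with a median of 0.20, while in WT 1 rose and 3 fell with a median of -0.13, and the response in DKO was called larger for 20 members. Of all genes tested, 5.47% rose in DKO and 1.42% had a larger response there. Without the DMSO library of passage 8 the count raised in DKO was 5, and without the MK-8722 library of passage 8 it was 13. The count was 0 in a test against a fold change of 1.2, which called 141 of all 15401 genes raised. The kinetochore motor *Cenpe* (ENSMUSG00000045328, chr3:135212537-135273611, plus strand) was at 136, 155, 146 and 163 CPM under DMSO and 177, 222, 192 and 205 CPM with MK-8722, a log2 fold change of 0.41 ± 0.064 (SE, edgeR adjusted p = 0.000116) with no overlap. Its difference to WT, where the value was -0.06, was 0.47 (95% interval 0.28 to 0.65, edgeR adjusted p = 0.00139). *Hmmr*, a spindle protein, rose by 0.41 (edgeR adjusted p = 0.00269), the kinetochore protein *Cenpf* by 0.35 (edgeR adjusted p = 0.00095), and cyclin B2, *Ccnb2*, by 0.33, with *Cdc25b* (0.29), *Nek2* (0.28), *Kif2c* (0.28) and *Nusap1* (0.27). The proliferation marker *Mki67* did not pass the test, with 0.069 in DKO and -0.33 in WT, and the difference was 0.40 (95% interval 0.19 to 0.60, edgeR adjusted p = 0.0136). Of 46 genes of DNA replication none was called, with a median of -0.082, and none of 12 D-type cyclins and CDK inhibitors was called. *Ccnd1* was at 301 ± 47.4 CPM under DMSO and 252 ± 25.6 CPM with MK-8722 (SD, n = 4 each), a log2 fold change of -0.25 (edgeR adjusted p = 0.104), and *Myc* had -0.037 (edgeR adjusted p = 0.886). CCAAT boxes, which are common in promoters of mitotic genes, were found in 24 of 32 mitosis promoters at hand (75.0%). The shares were 43.6% of the genes tested and 41.1% of all genes in the table. With promoters at hand for only 78.6% of the genes tested, the minimum set for a comparison was not reached. The table also covers genes that are not expressed in MEFs, and CCAAT was added after values were seen. No difference between these shares is therefore drawn. Whether the share of cells in mitosis differed was not tested.

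Interferon-stimulated genes were abundant in all DKO cultures and were higher with MK-8722 in each of them, but whether they were called depended on how the spread was estimated. The list mean was 6.20, 6.43, 6.07 and 6.55 log2 CPM under DMSO and 6.80, 7.13, 6.57 and 7.06 log2 CPM with MK-8722 in DKO MEFs. In WT MEFs with DMSO it was 2.29, 2.10 and 3.21 at passages 7, 8 and 9 and 6.15 at passage 11, and with MK-8722 2.49, 2.26, 3.31 and 6.45. The WT passages were thus far wider apart than those of DKO. With all 24 libraries sharing 1 estimate of the spread, 1 of 40 members rose, *Ifit2*, against 5.47% of all genes. Of the 40 members 38 were higher with MK-8722 in all 4 passages, a description that has no share over all genes beside it. In a fit of the 8 DKO libraries alone 24 rose (6.32% of all genes), and with passage as a block 33 rose (7.49% of all genes). *Ifit3*, an antiviral protein with tetratricopeptide repeats, was at 32.7, 46.4, 31.4 and 47.5 CPM under DMSO and 94.5, 146, 86.9 and 127 CPM with MK-8722, every MK-8722 library above every DMSO library, with a log2 fold change of 1.52 ± 1.06 (SE; edgeR adjusted p = 0.353, and 3.22e-12 with passage as a block). *Ifit2*, its relative, went from 44.6, 54.3, 45.4 and 54.6 to 82.2, 128, 93.4 and 109.5 CPM, by 1.05 ± 0.18 (SE, edgeR adjusted p = 0.000302). *Ifi207*, outside the list and of the same PYHIN family as interferon-inducible DNA sensors, rose from 5.46, 6.42, 5.30 and 4.97 to 17.3, 26.8, 15.2 and 16.9 CPM, by 1.78 ± 0.40 (SE, edgeR adjusted p = 0.00303). Members of the Ifit and Ifi200 families have close copies in the genome, so reads may be split between them. The median of the list was 0.48 in DKO and 0.23 in WT. 0 members had a response called different between the genotypes, whereas with passage as a block 16 of 40 had a larger response in DKO (3.16% of all genes).

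**Figure D3:**
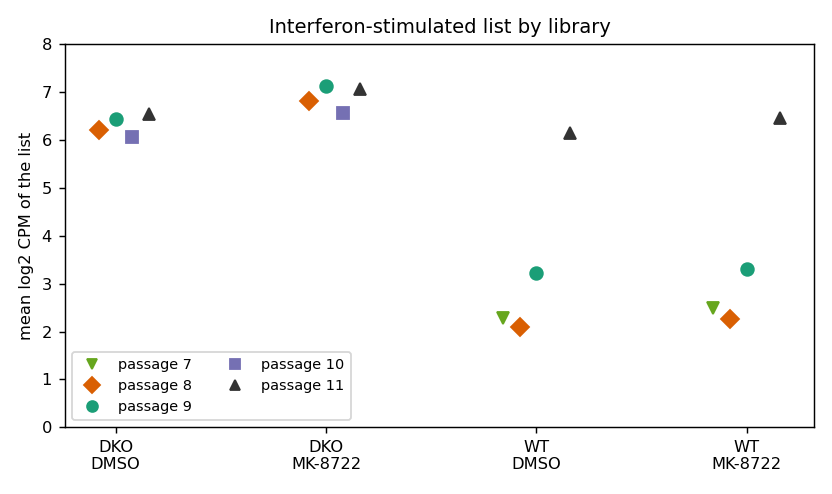
Mean log2 CPM of the 40 interferon-stimulated genes (y axis) in each library of the MK-8722 and DMSO groups, with symbols for passages. All DKO libraries lie between 6.07 and 7.13, with each MK-8722 library above the DMSO library of its passage, and only the passage 11 libraries of WT reach that range.

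Several genes of glucose and lipid metabolism responded in DKO MEFs. *Txnip* (ENSMUSG00000038393, chr3:96557957-96561883, plus strand), an arrestin that restrains glucose uptake and is induced by MLX-family factors, fell from 49.9, 35.7, 33.7 and 42.1 CPM with DMSO to 31.0, 17.9, 15.7 and 26.03 CPM with MK-8722. Each MK-8722 library lay below all 4 DMSO libraries, and the log2 fold change was -0.83 ± 0.23 (SE, edgeR adjusted p = 0.0131) against -1.44 in WT. Its paralog *Arrdc4*, another MLX target, fell from 15.2, 12.7, 11.0 and 9.73 to 10.8, 6.42, 6.54 and 6.498 CPM, a log2 fold change of -0.68 ± 0.17 (SE, edgeR adjusted p = 0.00716), with the passage 8 library with MK-8722 overlapping the DMSO group. *Arrdc2* rose by 0.50. The promoter of *Arrdc4* held CACGTG, shown here in capitals within 60 bases (RefSeq, GRCm38.p6; 5′ to 3′ on the strand of the gene).
*Arrdc4* (chr7:68749398-68749457, minus strand): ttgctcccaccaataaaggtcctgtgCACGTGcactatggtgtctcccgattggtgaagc

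In glycolysis, hexokinase 2, *Hk2*, rose from 63.6, 57.9, 60.8 and 50.3 to 91.4, 81.2, 83.6 and 81.9 CPM, by 0.54 (edgeR adjusted p = 5.67e-05), the glucose transporter *Slc2a1* by 0.38 (edgeR adjusted p = 0.000226) and enolase 2, *Eno2*, by 0.58, whereas lactate dehydrogenase, *Ldha*, fell by 0.29 (edgeR adjusted p = 0.00164). The other 20 of 24 genes of the list passed neither threshold, and without the MK-8722 library of passage 8 the count raised was 5. Of the list 12.5% rose and 4.17% fell, against 5.47% and 3.21% of all genes. Of hypoxia targets *Ndrg1* (0.89), *Vegfa* (0.52) and *Rora* (0.47) rose. Among the 20 hypoxia targets tested, 17 passed neither threshold, and 15% were raised against 5.47% of all genes. *Angptl4*, an inhibitor of lipoprotein lipase induced by PPARs, fell by 1.35 (edgeR adjusted p = 0.000172), and *Cpt1a*, which admits fatty acids to mitochondria, fell from 20.9 ± 1.17 to 15.1 ± 0.881 CPM (SD, n = 4 each), a log2 fold change of -0.47 ± 0.066 (SE, edgeR adjusted p = 4.37e-05), while *Cpt2*, in the inner membrane, rose by 0.27. *Cpt1a* had a value of 0.029 in WT, and the difference was -0.49 (95% interval -0.68 to -0.31, edgeR adjusted p = 0.000934). Among 27 tested genes of fatty acid oxidation and its activators, 24 passed neither threshold. The shares were 3.70% raised and 7.41% lowered, against 5.47% and 3.21% of all genes. The droplet coat *Plin2* fell by 0.43, and *Plin3* (0.31), *Plin4* (1.59) and the lipase *Pnpla2* (0.31) rose. *Lpin1*, a phosphatidate phosphatase and coactivator, rose by 1.02 (edgeR adjusted p = 0.0024) and *Acsl3*, an acyl-CoA synthetase, by 0.44. *Ppargc1a*, the coactivator of mitochondrial biogenesis, was under 1 CPM in every DKO library.

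Of 14 AMPK subunits and upstream kinases tested 1 rose and 1 fell, 7.14% each, near the 5.47% and 3.21% of all genes. Per transcript length, the catalytic subunit *Prkaa1* (29.4 ± 0.638 TPM with DMSO, SD, n = 4) exceeded *Prkaa2* (0.917 ± 0.0941 TPM), and *Prkab1* (54.9 ± 3.74 TPM) exceeded *Prkab2* (4.25 ± 0.401 TPM). With MK-8722 the β subunits changed in opposite directions. *Prkab1* fell from 55.5, 51.6, 48.7 and 45.3 to 43.9, 42.2, 39.9 and 37.9 CPM, a log2 fold change of -0.29 ± 0.071 (SE, edgeR adjusted p = 0.00461). *Prkab2* rose from 11.99, 11.9, 10.5 and 10.2 to 15.2, 14.6, 13.9 and 13.5 CPM, by 0.36 ± 0.076 (SE, edgeR adjusted p = 0.0019). The values in WT were -0.25 and 0.36. *Prkag1* changed by -0.25, under the fold threshold, and *Prkaa1* had -0.014 (edgeR adjusted p = 0.843).

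Of 20 circadian clock genes 6 rose and 3 fell, against 5.47% and 3.21% of all genes. *Arntl*, which encodes the activator BMAL1, fell from 17.1, 17.4, 16.7 and 22.96 to 10.0, 11.0, 10.4 and 16.004 CPM, a log2 fold change of -0.65 ± 0.15 (SE, edgeR adjusted p = 0.00341), with no overlap. *Nfil3*, a repressor of D-box genes, fell by 0.52 (edgeR adjusted p = 0.045). The repressor *Bhlhe40* rose from 25.1, 24.9, 28.3 and 31.0 to 43.2, 50.2, 64.4 and 65.7 CPM, by 1.03 ± 0.15 (SE, edgeR adjusted p = 4.86e-05), the D-box activator *Dbp* by 0.86 (edgeR adjusted p = 0.000974), the REV-ERB repressors *Nr1d1* and *Nr1d2* by 0.87 and 0.28, and *Per3* by 0.57. *Clock*, *Per1*, *Per2*, *Cry1* and *Cry2* passed neither threshold. Leaving out the MK-8722 library of passage 9 left 3 members raised and 1 lowered, and 1 was called lowered without the DMSO library of passage 10 or 11. The time of harvest was not given in the sources used here.

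Members of the matrix, contractile and immediate early lists were called as well. *Ccn1* and *Ccn2*, matricellular targets of YAP and SRF, rose by 0.85 and 0.66, *Ccn1* from 508, 565, 492 and 472 to 787, 976, 993 and 928 CPM with no overlap (edgeR adjusted p = 1.8e-05). Vinculin, *Vcl*, rose by 0.29. These 3 of 19 contractile and YAP targets were the ones called, against 5.47% of all genes raised. Without the DMSO library of passage 9 the count was 5, and with passage as a block it was 7 (7.49% of all genes). Among proteases and inhibitors, *Plaur* and the aggrecanase *Adamts4* (0.69) rose and *Timp1* fell by 0.3. *Col8a1* (0.75) was the one collagen of 19 to rise, a share of 5.26%, near the 5.47% of all genes. With passage as a block 4 collagens rose and 1 fell, against 7.49% and 4.24% of all genes. *Timp1* did not pass without both passage 8 libraries (log2 fold change -0.26, edgeR adjusted p = 0.0678). Of 26 immediate early genes *Fosb* (0.90), *Zfp36* (0.70) and *Maff* (0.34) rose and *Klf2* fell. The shares were 11.5% raised and 3.85% lowered, against 5.47% and 3.21% of all genes. The cytokines *Il11* (0.88) and *Cx3cl1* (0.50) and the prostaglandin synthase *Ptgs2* (0.52) rose, and *Cxcl5* (-1.20), *Cxcl1* (-0.69) and *Cxcl12* (-0.43) fell. *Cxcl12* went the other way in WT (0.57), and the difference was -1.004 (95% interval -1.31 to -0.70, edgeR adjusted p = 5.8e-05).

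Of 31 ATF4 targets, which serve amino acid synthesis and transport, 1 fell, *Psat1* with a log2 fold change of -0.41 (edgeR adjusted p = 0.0128), and none rose, with a median of -0.17. The 3.23% lowered was near the 3.21% of all genes. Within passages the list changed by 0.057 at passage 8 and by -0.19, -0.33 and -0.32 at passages 9, 10 and 11, and its level at passage 8 was 0.29 with DMSO and 0.35 with MK-8722, above all other libraries. Without both passage 8 libraries 10 members fell (3.84% of all genes), without the MK-8722 library of passage 8 alone 16, and without the MK-8722 library of passage 11 alone 0. With passage as a block 10 members fell (4.24% of all genes) and 1 rose. In the unfolded protein response, the ER sensor *Atf6* (0.43) and the degradation factor *Edem1* (0.41) rose and *Herpud1* fell by 0.42. The other 20 of 23 members tested passed neither threshold. The shares were 8.70% raised and 4.35% lowered, against 5.47% and 3.21% of all genes. Of 22 p53 targets *Pmaip1* (0.64) and *Rrm2b* (0.45) rose together with *Ckap2* (0.27), and *Bbc3* (-0.47), *Aen* (-0.28) and *Trp53* itself (-0.30) fell. This was 13.6% in each direction, against 5.47% of all genes raised and 3.21% lowered, and 16 members passed neither threshold.

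Several lists held 0 genes called by edgeR. Beside the number tested, the members past an unadjusted p of 0.05 are given in each direction for oxidative phosphorylation (75 tested, 2 up and 20 down), mitochondrial biogenesis (14 tested, 0 up and 4 down) and ribosomal proteins (79 tested, 0 up and 24 down). In the same way they were counted for DNA replication (46 tested, 6 up and 22 down), D-type cyclins and CDK inhibitors (12 tested, 0 up and 2 down), the antioxidant targets of NRF2 (22 tested, 2 up and 3 down), MHC class I presentation (12 tested, 0 up and 0 down) and heat shock (13 tested, 0 up and 2 down). DESeq2 called 0 members of these lists raised and 0 lowered, limma voom 0 and 0, and the edgeR 4 form 0 and 0. With passage as a block 2 genes of MHC class I presentation, 1 of the D-type cyclins and CDK inhibitors and 1 heat shock gene rose, and without both passage 8 libraries 1 gene of DNA replication fell. In other lists the passage block moved the number of members raised from 1 to 2 for AMPK subunits and upstream kinases, from 2 to 4 for fatty acid synthesis and from 3 to 6 for chemokines and cytokines, and the number lowered from 1 to 3 for immediate early genes, from 0 to 1 for ERK feedback genes, from 1 to 4 for matrix proteases and inhibitors, from 1 to 2 for iron genes and from 0 to 2 for fibroblast markers, against 7.49% and 4.24% of all genes. Without both passage 8 libraries the number raised moved from 1 to 2 for fatty acid oxidation and from 2 to 4 for insulin and FOXO genes, and the number lowered from 1 to 2 for immediate early genes, from 1 to 0 for matrix proteases and inhibitors, from 0 to 1 for contractile and SRF/YAP targets, from 1 to 0 for iron genes and from 0 to 1 for fibroblast markers, against 5.33% and 3.84% of all genes.

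**Figure D4:**
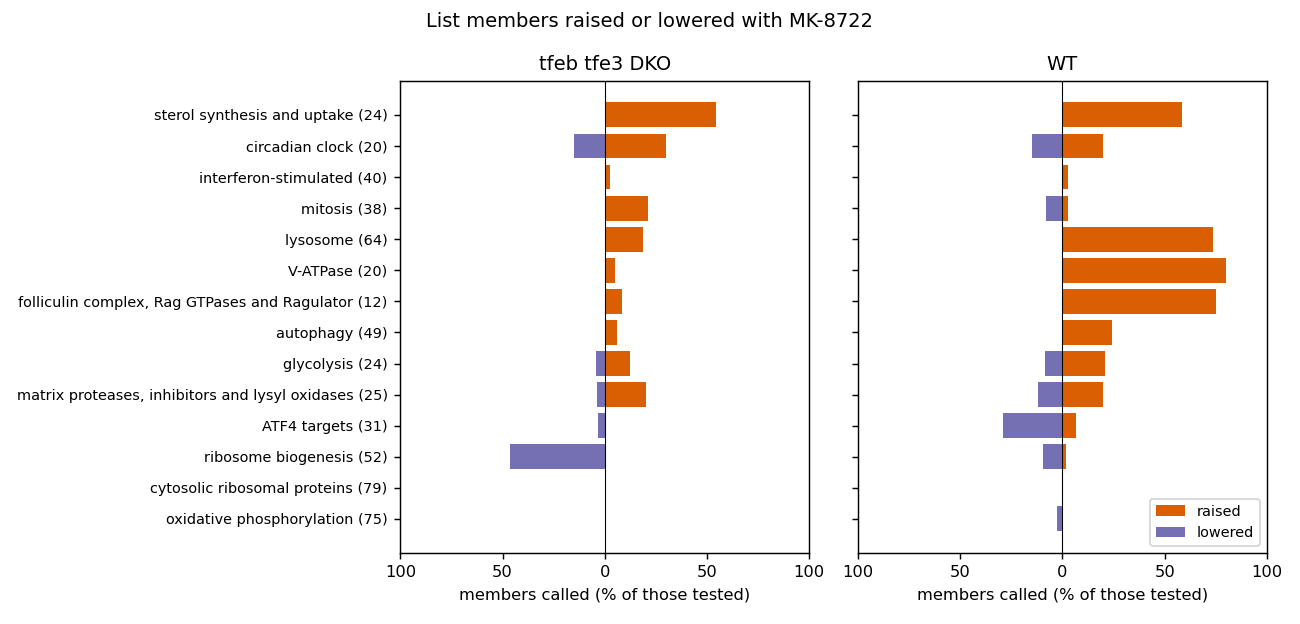
Percentage of tested members raised (right of 0) or lowered (left of 0) with MK-8722 in *tfeb tfe3* DKO MEFs (left panel) and in WT MEFs (right panel), with the number tested in brackets. Sterol genes were raised in both genotypes (13 and 14 of 24), lysosomal genes mostly in WT (12 and 47 of 64), and ribosome biogenesis genes were lowered in 24 of 52 in DKO and 5 in WT.

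Among genes called in DKO whose response differed from WT, the 6 with the largest negative difference were *Plin4*, a lipid droplet protein that rose by 1.59 in DKO and 4.06 in WT, *Lcp1* (0.98, 3.56), *Dynap* (0.73, 2.46), the lysosomal glycoprotein *Cd68* (0.94, 2.64), *Plekhs1* (-0.94, 0.69) and *Prtg*. The 6 with the largest positive difference (*Mest*, *Tnfrsf13c*, *Gm42460*, *1300014J16Rik*, *Prickle1* and *A230056P14Rik*) had means of at most 0.555 CPM in the DKO groups, as did *Prtg*, so no fold is given for these 7. The falls of *Pde4b* and *Ezr* were larger than in WT. *Pde4b* changed by -0.33 in WT, with a difference of -1.49 (95% interval -1.88 to -1.11, edgeR adjusted p = 6.62e-06), and *Ezr* by -0.32, with a difference of -0.34 (95% interval -0.45 to -0.22, edgeR adjusted p = 0.000288). Of the 53 genes raised in DKO, not called in WT and with a larger response, the median was 0.37 in DKO and -0.054 in WT, while for 296 others raised in DKO alone the difference was not called. Opposite calls were made for 6 genes raised in DKO and lowered in WT and for 11 lowered in DKO and raised in WT, such as *Cebpd*, a C/EBP factor (-0.53 in DKO, 0.56 in WT), and *Dusp3* (-0.27 and 1.02), which were picked after their values were seen.

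Torin1 in the same DKO MEFs is set beside MK-8722 for the leading genes. Both comparisons use the same DMSO libraries, so their values are given side by side without a test. *Insig1* changed by 1.48 with MK-8722 and -0.94 with torin1, and *Hmgcs1* by 0.96 and -0.84. *Txnip* changed by -0.83 and 1.67, *Klf2* by -1.84 and 0.41, *Pde4b* by -1.83 and 1.01, and *Rhob* by -1.16 and -0.013. *Rrp12* (-0.56 and -0.75), *Arntl* (-0.65 and -1.53), *Lrrc32* (1.17 and 1.67), *Calcoco1* (0.53 and 2.06) and *Tmem175* (0.64 and 1.65) are given in the same order.

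Among the genes called, the passage 8 culture mostly moved in the same direction as the others, with a smaller median difference. For the 843 upregulated genes, the median difference between MK-8722 and DMSO libraries of the same passage was 0.35 at passage 8 and 0.43, 0.44 and 0.41 at passages 9, 10 and 11, and for the 495 downregulated genes it was -0.29 against -0.39, -0.40 and -0.35. Passage 8 was the culture with the smallest response for 357 of the upregulated and 233 of the downregulated genes, but 835 and 489 of them moved the called way in it. These libraries entered the calls, so the numbers are a description. With 1 library per passage and treatment, a property of the culture and one of the library cannot be told apart. Without both passage 8 libraries 831 genes were upregulated and 599 downregulated, of which 715 and 445 were among those called with all libraries.

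**Figure D5:**
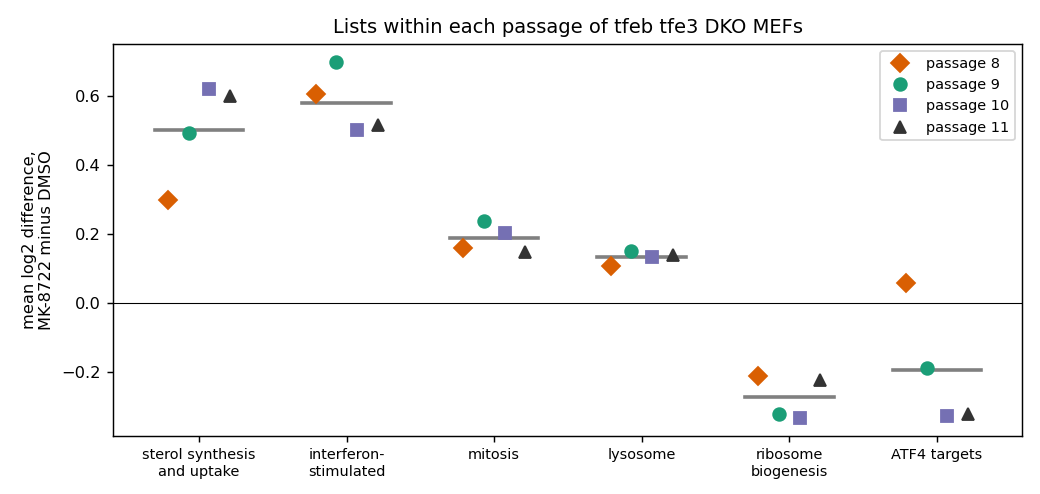
Mean log2 difference between the MK-8722 and the DMSO library of the same passage (y axis) for 6 lists in *tfeb tfe3* DKO MEFs, with 1 symbol per passage and the mean as a grey bar. Passage 8 shows the smallest difference of sterol genes (0.30) and the only difference above 0 for ATF4 targets (0.057), while interferon-stimulated genes were higher by 0.50 to 0.70 in all 4.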

How the data were processed

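Polyadenylated RNA of 24 MEF libraries was sequenced as 52-bp paired-end reads. The authors aligned reads with STAR and quantified them with salmon in nf-core/rnaseq 3.11.2 (Nextflow 23.04.1) on GRCm38 with Ensembl release 102, considering unique molecular identifiers, and deposited estimated counts per gene and TPM per transcript without pooling replicates. The TPM values deposited by the authors were summed per gene. Estimated counts were rounded, and genes kept by filterByExpr (minimum count 10) were fitted over all 24 libraries with 1 mean per group by edgeR 4.0.16 quasi-likelihood (TMM, 18 residual degrees of freedom), with Benjamini-Hochberg adjustment over 15401 genes. The call rule was that of the study, 1.2-fold or more at an adjusted p under 0.05. CPM are TMM-normalised. Total counts of 24668921 to 30179425 limit low genes by counting error. The study also names a batch removal, which was not applied.

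Named genes were the 12 largest called rises and falls whose mean log2 CPM reached 2 and whose groups were apart, fixed symbols, up to 3 called members per list and direction, 6 genes per direction with the smallest adjusted p called alike in both genotypes, and 6 per direction with the largest difference between genotypes. Further list members were named after their values were seen. Some genes that these rules name are not reported here. The lists and rules were chosen with earlier results of these data known. The edgeR procedure was tested on simulated data. DESeq2 1.42.0, limma 3.58.1 and R 4.3.3 served the alternatives, among them other scalings, filters, call rules, blocks for replicate number and passage, and leaving out libraries. Promoters of 250 bases before to 50 after the start came from RefSeq (GRCm38.p6), and no comparison is made over sets with a promoter for under 80% of their protein-coding genes. Coordinates are those of the annotation on GRCm38.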

Additional observations from a re-analysis of the deposited data

Results flagged for a closer look

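For the genes named, 22 of 314 groups of 4 libraries held 1 library set apart from the other 3 by Dixon's criterion, and chance gives about 1 in 20 such groups. 15 of these libraries were of passage 8. With MK-8722 the passage 8 library stood apart at 10.8 CPM for *Arrdc4* (others 6.42 to 6.54), 43.7 CPM for *Fam13b* (others 30.1 to 31.8), 34.8 CPM for *Gla* (others 31.2 to 31.5), 275 CPM for *Myc* (others 185 to 198), 109 CPM for *Nek2* (others 123 to 125), 32.6 CPM for *Pip4p1* (others 38.1 to 38.9), 106 CPM for *Plin2* (others 86.9 to 87.8), 96.9 CPM for *Rrp12* (others 67.6 to 69.3), 880.2 CPM for *Sqstm1* (others 599.6 to 621) and 348 CPM for *Trp53* (others 286 to 297). With DMSO the passage 8 library stood apart at 20.8 CPM for *Aga* (others 17.9 to 18.2), 1.24 CPM for *Plin4* (others 1.68 to 1.77), 739 CPM for *Sqstm1* (others 522 to 541), 248 CPM for *Timp1* (others 202 to 208) and 7.21 CPM for *Tnfrsf11b* (others 5.05 to 5.41). Libraries of other passages stood apart at 22.96 CPM for *Arntl* with DMSO at passage 11 (others 16.7 to 17.4), 16.004 CPM for *Arntl* with MK-8722 at passage 11 (others 10.0 to 11.0), 5.98 CPM for *Cd68* with DMSO at passage 9 (others 4.05 to 4.32), 10.0 CPM for *Kitl* with DMSO at passage 11 (others 8.42 to 8.49), 33.7 CPM for *Mcoln1* with MK-8722 at passage 10 (others 38.8 to 39.2), 54.3 CPM for *Nr1d2* with DMSO at passage 11 (others 63.8 to 65.6) and 77.1 CPM for *Rusc2* with DMSO at passage 10 (others 80.4 to 80.9).

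The response in DKO minus that in WT passed the edgeR test of the difference for 43 of the genes named, with adjusted p from 1.87e-12 to 0.0326. On the log2 scale, among lysosomal, autophagy and folliculin genes it was -0.56 for *Aga*, -1.10 for *Ctsa*, -1.79 for *Dpp7*, -0.77 for *Gla*, -0.80 for *Galc*, -0.93 for *Hexa*, -0.68 for *Idua*, -0.64 for *Naglu*, -1.48 for *Neu1*, -0.92 for *Mcoln1*, -0.89 for *Pip4p1*, -1.41 for *Flcn*, -1.27 for *Fnip1*, -0.84 for *Fnip2*, -0.65 for *Sqstm1*, -1.70 for *Cd68* and -3.47 for *Gpnmb*. Among mitosis genes it was 0.35 for *Ccnb2*, 0.47 for *Cenpe*, 0.50 for *Cenpf*, 0.35 for *Ckap2*, 0.38 for *Kif2c*, 0.52 for *Nusap1* and 0.40 for *Mki67*. Among metabolic and lipid droplet genes it was -0.49 for *Cpt1a*, -0.79 for *Eno2*, -0.63 for *Ndrg1*, -0.46 for *Plin2*, -0.42 for *Plin3* and -2.47 for *Plin4*. For other genes it was -1.10 for *Cebpd*, -0.60 for *Cited2*, 0.81 for *Cx3cl1*, -1.004 for *Cxcl12*, -1.29 for *Dusp3*, -1.73 for *Dynap*, -0.34 for *Ezr*, -0.78 for *Gask1b*, -2.58 for *Lcp1*, -0.68 for *Maff*, -1.49 for *Pde4b*, -1.63 for *Plekhs1* and -0.90 for *Ptgs2*.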

How the results depend on the processing

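Counts of upregulated and downregulated genes in DKO stayed within 1.5 times of 843 and 495 under another scaling (DESeq2 size factors or library size), other filters on low counts, DESeq2, limma voom, the edgeR 4 form and fits of the DKO libraries alone. They did not under other call rules. A test against a fold change of 1.2 gave 141 raised and 33 lowered, 254 smaller and 19 larger responses, and 85 raised and 15 lowered in both genotypes. By that test 3 circadian clock, 1 autophagy, 1 glycolysis and 1 contractile or SRF/YAP gene rose, and 0 fell in each of these lists. The adjusted p alone gave 1619 raised, 1579 lowered, and 1005 and 1004 in both genotypes. With passage as a block the counts were 1153 and 653, of which 839 and 493 were called without it, and 486 responses were larger in DKO. Leaving out 1 library at a time gave 721 to 944 raised, 395 to 715 lowered, 547 to 698 smaller, 167 to 270 larger, and 425 to 510 raised and 171 to 237 lowered in both. With the replicate block the counts were 822 raised and 509 lowered, and same-numbered libraries, of different passages save 1 pair, correlated in their deviations by -0.14 to 0.058, so the numbers share no pairing. For libraries of the same passage the correlation was 0.058 to 0.24, and each MK-8722 library correlated best with the DMSO library of its passage. No named gene called in the main fit reversed its sign, and the signs of named genes not called there were not compared. Of the values of named genes under alternatives, 2560 kept their call, 229 lost it and 10 gained one. The call rule leaves out responses below 1.2-fold, and genes near 0 counts could not be compared.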

Other observations

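Further lists held few called genes. Among nutrient sensors and regulators of MTOR, the stress-induced leucine sensor *Sesn2* fell by 0.39 on the log2 scale (edgeR adjusted p = 0.0052, -0.25 in WT) and *Castor2* fell by 0.32 (edgeR adjusted p = 0.0137, -0.26 in WT), while *Prr5l*, a partner of MTORC2, rose by 0.29 (edgeR adjusted p = 0.012, 0.25 in WT). Of 24 members tested, 21 passed neither threshold, and 4.17% rose and 8.33% fell, against 5.47% and 3.21% of all genes. In insulin signalling and FOXO targets, the receptor *Igf1r* rose by 0.27 and the ubiquitin ligase *Fbxo32* by 0.45 (edgeR adjusted p = 0.000404 and 0.00204), and the regulatory subunit *Pik3r3* had -0.53 (edgeR adjusted p = 0.00573). *Cited2*, a binder of EP300 induced by FOXO, fell by 0.46 in DKO (edgeR adjusted p = 3.35e-05), had 0.14 in WT, and its responses differed by -0.60 (95% interval -0.79 to -0.41, edgeR adjusted p = 9.53e-05).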
